A study of Mus musculus with 6 samples.

Results

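The Mir322, Mir503 and Mir351 cluster is a group of miRNA hairpins on the X chromosome of the mouse. Its members were taken by name, as the rows Mir322, Mir503, Mir351 and Mir542 and every row whose name begins with Mir450, which gave 7 of the 1155 rows of the count table: Mir322, Mir503, Mir351, Mir542, Mir450-2, Mir450-1 and Mir450b. Small RNA was sequenced from mouse embryonic fibroblasts, connective tissue cells grown out of embryos, in 3 libraries from Fbxw7 KO cells and 3 from WT cells. All cells were grown in the same serum-containing medium with added non-essential amino acids. The sources used here do not give the age of the embryos, the way Fbxw7 was knocked out, or whether replicates are separate embryos or cultures. The table holds miRNA rows and no Fbxw7 row, so the knockout could not be checked in these libraries. The p-values therefore measure the spread between these libraries, which may be technical, and any difference of culture or embryo between the genotypes cannot be told apart from the genotype.

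miRNA hairpins are cut from longer transcripts, and the mature strand then guides Argonaute to messenger RNAs that pair with its seed, bases 2 to 8 from the 5′ end. miR-322 (called miR-424 in human) and miR-503 belong to the wider miR-15/16 family, which represses cyclins and Cdc25a and so slows entry into the cell cycle, and both are known from muscle differentiation. Both are also known as short-lived miRNAs that can be degraded on pairing with certain transcripts. FBXW7, the protein removed in the KO cells, is the substrate-recognition subunit of a ubiquitin ligase that marks cyclin E, Myc and Jun for degradation.

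The mature strands are shown because their seeds fall into groups that the results follow. Capitals mark the seed, and the sequences are those of RefSeq on GRCm38.p6, where all 7 members were matched by symbol.
miR-322-5p: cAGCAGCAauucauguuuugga
miR-503-5p: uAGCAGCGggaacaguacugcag
miR-351-5p: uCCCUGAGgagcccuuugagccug
miR-542-3p: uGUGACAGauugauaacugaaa
miR-450a-5p: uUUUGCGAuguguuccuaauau
miR-450b-5p: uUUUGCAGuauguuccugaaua
Bases 2 to 7 are the same in miR-322-5p and miR-503-5p but their full seeds differ, and the full seed of miR-322-5p is that of miR-15 and miR-16. miR-351-5p has the seed of the miR-125 family. The counts hold both arms of a hairpin as 1 value, so they do not say which strand a read came from.

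The hairpins lie on the minus strand of chromosome X within 53047997 to 53054349 (mm10), a span of 6353 bases. In the direction of transcription Mir322 comes first (53054255 to 53054349). Mir503 (53053984 to 53054054) begins 295 bases and Mir351 (53053255 to 53053353) 996 bases downstream of the 5′ end of Mir322. A gap of 3767 bases then leads to Mir542 (53049403 to 53049487), which is followed by Mir450-2 (53048299 to 53048367), Mir450-1 (53048154 to 53048244) and Mir450b (53047997 to 53048078). RefSeq places Mir322, Mir503 and Mir351 inside the long non-coding RNA gene C430049B03Rik (53053112 to 53057190), while the shorter model of that gene in GENCODE M21 (53055046 to 53057190) ends before Mir322. GENCODE M21 lists each hairpin at these coordinates with no other gene over it, and no other row of the count table overlaps any of them.

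Mir450-2 and Mir450-1 encode the same miR-450a-5p, and their hairpins are shown for that reason, with the mature 5p strand in capitals.
Mir450-2: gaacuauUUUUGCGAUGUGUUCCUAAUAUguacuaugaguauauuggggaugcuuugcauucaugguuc
Mir450-1: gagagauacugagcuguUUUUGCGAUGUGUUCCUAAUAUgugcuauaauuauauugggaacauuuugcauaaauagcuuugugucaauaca
The longest stretch these hairpins share is 25 bases. A read that aligns to both places is left out by the default of the counting program, so the values of Mir450-2 and Mir450-1 are uncertain and may hold only part of their reads. Mir322, Mir503, Mir351, Mir542 and Mir450b share at most 19 bases with any other row compared, the 19 being between Mir450b and Mir450-1. Only rows with a RefSeq symbol, 988 of the 1155, could be compared, some of them by a mature strand alone. For Mir351 this was measured on a single mature strand.

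The libraries held between 2932439 and 5019700 counts, and 283 of the 1155 rows, among them 6 of the 7 members, had enough counts to be tested. Mir450-2 was the member left out. The fibroblast and mesenchymal marker list held 49.8% to 53.3% of counts in Fbxw7 KO and 46.9% to 47.5% in WT, with 1 of its 7 rows at 0. A row at 0 may also have lost its reads in counting, as reads that align to several places or overlap 2 rows are left out by default, and the fibroblast row at 0, Mir22, shows that a 0 here does not establish that a miRNA is absent. Among the lists of other cell types, the muscle list held 0.0218% to 0.0409% in Fbxw7 KO and 0.0141% to 0.0230% in WT with 5 of 8 rows at 0, and both endothelial rows stood at 0. The neuronal list stayed at or below 0.0192% in every library with 4 of 11 rows at 0, the epithelial list at or below 0.00618% with 0 of 7 rows at 0, the single liver row at or below 0.00232%, and the blood list at or below 0.000438% with 2 of 6 rows at 0. In bulk cells a difference in the number of cells of a type cannot be told apart from one in RNA per cell.

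The 7 hairpins differed far more from each other than between genotypes. On the per-length scale of the authors' FPKM, Mir322 was the highest at a mean of 13632 over the 6 libraries, 50th of all 1155 rows and 3rd of the 89 on chromosome X. Mir351 followed with 4784, Mir503 with 2024, Mir542 with 830.3, Mir450b with 387.3, Mir450-1 with 52.5 and Mir450-2 with 27.9 FPKM. This order held in all 6 libraries, though narrowly in Fbxw7 KO replicate 2, with 44.35 FPKM for Mir450-1 and 43.86 FPKM for Mir450-2. Within a library Mir322 stood 1.95 to 3.73 times above Mir351, and Mir450b 5.09 to 10.5 times above Mir450-1. Reads that align to both Mir450-1 and Mir450-2 are left out by default. The levels of these rows may thus be too low and the distance of Mir450b from Mir450-1 too large, which was not tested. Across libraries, however, the ranges of several neighbours met: those of Mir322 and Mir351, of Mir503 and Mir542, of Mir542 and Mir450b, and of Mir450-1 and Mir450-2 overlapped.

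**Figure D1:**
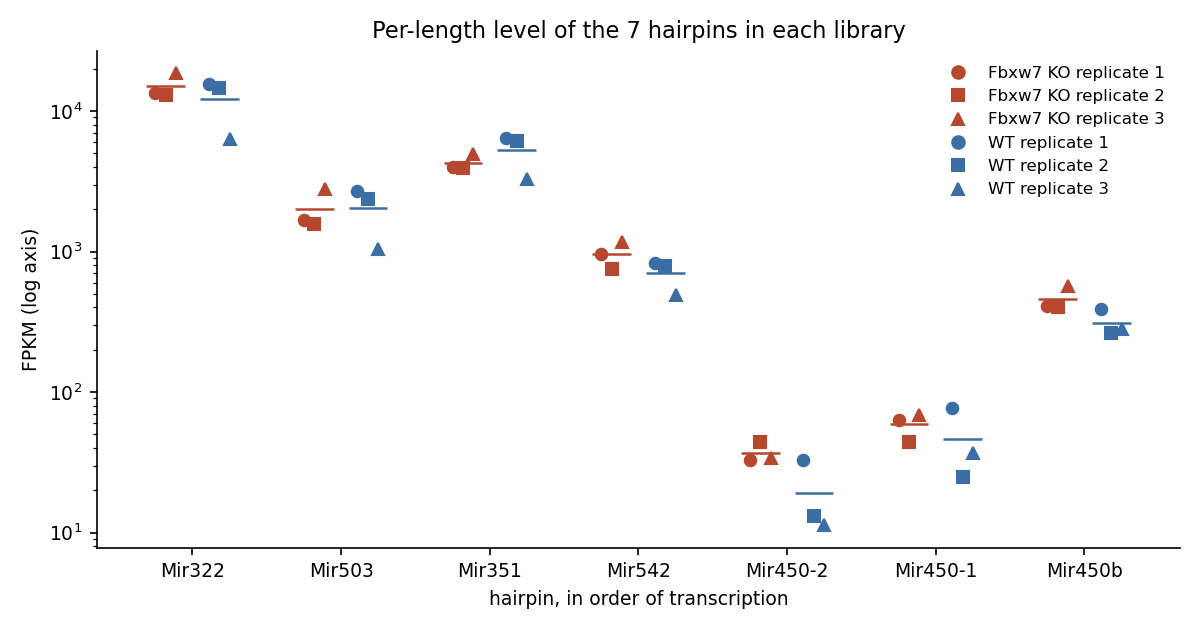
FPKM, on a log axis, of the 7 hairpins in each library, in the direction of transcription, with Fbxw7 KO at the left and WT at the right of each hairpin; short lines are means of 3 libraries. WT replicate 3 is the lowest WT library for Mir322 (6375 FPKM), Mir503, Mir351 and Mir542, and the genotypes overlap for every hairpin except Mir450b.

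Between Fbxw7 KO and WT cells 0 of the 6 tested members were called, beside 25.4% of all 283 tested miRNAs (edgeR quasi-likelihood test, Benjamini-Hochberg adjusted p under 0.05). A member that was not called is not thereby shown to be unchanged, and 6 members are too few to set the cluster apart by this count. Over all tested miRNAs 43 were called higher and 29 lower in Fbxw7 KO, but 30 higher and 34 lower with TMM factors taken from outside the Dlk1-Dio3 region, so which direction is the more frequent depends on this scaling; 0 members were called under either. Mir450b had an unadjusted p under 0.05, and it was the only member of the 6 to do so. DESeq2 also called 0 of 7 members and gave an unadjusted p under 0.05 for Mir450b alone. Other settings differed. Without a filter Mir542 passed too in edgeR, and Mir542 and Mir450-2 in limma. Mir450b did not pass with TMM factors from outside the cluster or outside Dlk1-Dio3. It also did not pass on leaving out Fbxw7 KO replicate 3, WT replicate 2 or WT replicate 3. The log2 fold changes of the 6 ran from −0.32 to 0.55, with 4 above and 2 below 0 and a median of 0.29, beside a median of 0.05 over all tested miRNAs. With 3 libraries a genotype the intervals were wide: that of Mir322 ran from 0.744-fold to 1.95-fold and that of Mir503 from 0.561-fold to 1.67-fold.

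Mir322, the most abundant member and a repressor of cell cycle genes, had 1251, 1254 and 1735 CPM in Fbxw7 KO replicates 1 to 3, against 1459, 1458 and 607.6 CPM in WT replicates 1 to 3. The genotypes overlapped, as WT replicates 1 and 2 lay within the range of the KO libraries, while WT replicate 3 held less than any other library. The log2 fold change was 0.27 (SE 0.306, 95% interval −0.43 to 0.96, edgeR adjusted p = 0.568), and it turned to −0.06 without WT replicate 3 (edgeR adjusted p = 0.85).

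Mir503, which shares bases 2 to 7 of its seed with Mir322 and is likewise known to repress Cdc25a and cyclins, had 117.1, 112.8 and 193.9 CPM in Fbxw7 KO and 188.8, 174.7 and 74.1 CPM in WT. The highest KO library thus lay level with the highest WT libraries, and the lowest value was again that of WT replicate 3. The log2 fold change was −0.05 (SE 0.348, 95% interval −0.83 to 0.74, edgeR adjusted p = 0.931), a value near 0 whose sign turned under several scalings and on leaving out single libraries.

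Mir351, which carries the miR-125 seed, had 390.0, 390.7 and 485.0 CPM in Fbxw7 KO, against 623.7, 631.5 and 324.2 CPM in WT. All KO libraries lay below WT replicates 1 and 2 and above WT replicate 3. The log2 fold change was −0.32 (SE 0.244, 95% interval −0.87 to 0.23, edgeR adjusted p = 0.368). Without WT replicate 3 it was −0.59 (SE 0.131, edgeR adjusted p = 0.0201), the single call of a member among the alternatives run. In that comparison of 3 Fbxw7 KO with 2 WT libraries 23.0% of 287 miRNAs were called. Leaving out WT replicate 1 or 2 called 0 members, beside 14.6% and 12.2% of all miRNAs, and leaving out Fbxw7 KO replicate 1, 2 or 3 called 0 members, beside 16.8%, 11.9% and 27.2%.

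Of the downstream members, Mir542, whose 3p strand is known to repress survivin, had 80.1, 64.6 and 97.6 CPM in Fbxw7 KO and 68.6, 69.9 and 41.9 CPM in WT. The genotypes overlapped, with the KO replicate 2 value below WT replicates 1 and 2. The log2 fold change was 0.43 (SE 0.242, 95% interval −0.12 to 0.97, edgeR adjusted p = 0.225). It was 0.21 without WT replicate 3 and 0.28 without Fbxw7 KO replicate 3, and did not exceed 0.56 on leaving out any other library.

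Mir450b, the last hairpin, had 33.1, 33.6 and 46.1 CPM in Fbxw7 KO, against 31.3, 22.6 and 23.1 CPM in WT. It was the one tested member whose KO and WT libraries did not overlap, with a narrow gap between Fbxw7 KO replicate 1 and WT replicate 1; such separation was found for 43.8% of all tested miRNAs, for 23.7% with the KO libraries above and for 20.1% with them below. The log2 fold change was 0.55 (SE 0.22, 95% interval 0.05 to 1.05, edgeR adjusted p = 0.106), and the adjusted p ranged from 0.0809 to 0.29 over the alternatives. The value was positive in all 19 of them, from 0.38 to 0.72.

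Mir450-1 had 18, 12 and 24 counts in Fbxw7 KO and 34, 10 and 13 in WT, and Mir450-2 had 7, 9 and 9 counts in Fbxw7 KO and 11, 4 and 3 in WT. WT replicate 1, the library with the most counts in all, was the highest for both in counts. For Mir450-1 this held in CPM too (6.823). Mir450-2 had 2.209, 3.058 and 2.306 CPM in Fbxw7 KO and 2.208, 0.951 and 0.780 CPM in WT. Its genotypes did not overlap in CPM, by a narrow gap and as for 43.8% of tested miRNAs, but they overlapped in FPKM. DESeq2 gave it a log2 fold change of 0.90 (SE 0.815, DESeq2 adjusted p = 0.502). For Mir450-1 the log2 fold change was 0.32 (SE 0.403, 95% interval −0.60 to 1.23, edgeR adjusted p = 0.604). Single libraries moved it widely, to 0.89 without WT replicate 1 (95% interval 0.06 to 1.72, edgeR adjusted p = 0.125), and to 0.05 when WT replicate 2, 0.17 when WT replicate 3 or 0.19 when Fbxw7 KO replicate 3 was left out. For Mir450-2, which was too low for the main edgeR test, the ratio of shares between 25 counts in Fbxw7 KO and 18 in WT was 1.88 (95% interval 0.985 to 3.66, exact, counting error only). Reads from PCR without molecular identifiers are not independent molecules, so this interval does not cover the spread between libraries.

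**Figure D2:**
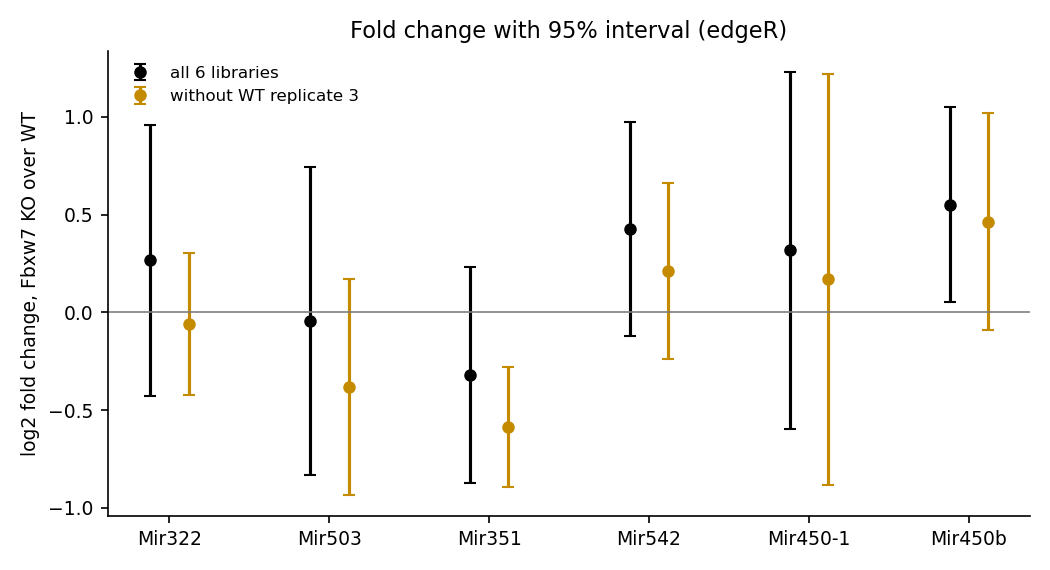
log2 fold change of Fbxw7 KO over WT for the 6 tested hairpins with 95% intervals from edgeR, in all 6 libraries (black) and without WT replicate 3 (yellow). Mir351 moves from −0.32 to −0.59 without that library and Mir322 from 0.27 to −0.06, while Mir450b stays above 0 at 0.46.

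As a whole the cluster held 0.1896%, 0.187% and 0.2669% of the counts of the Fbxw7 KO libraries and 0.2363%, 0.2173% and 0.1115% of those of the WT libraries. Fbxw7 KO replicate 3 was the highest and WT replicate 3 the lowest. The genotypes overlapped, as WT replicates 1 and 2 lay above Fbxw7 KO replicates 1 and 2. The means were 0.2145% ± 0.0454 in Fbxw7 KO and 0.1884% ± 0.0672 in WT (SD, n = 3 each). The 3 upstream hairpins, Mir322, Mir503 and Mir351, together had 1758, 1758 and 2414 CPM in Fbxw7 KO and 2271, 2264 and 1006 CPM in WT. The 4 downstream hairpins together had 121.2, 105.3 and 152.2 CPM in Fbxw7 KO and 109.0, 95.8 and 69.2 CPM in WT.

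The position of WT replicate 3 was looked at after these values were seen. Relative to the mean of the other WT libraries on the log2 CPM scale, it held 0.417 of their Mir322, 0.408 of their Mir503 and 0.517 of their Mir351, against a median of 0.973 over all 283 tested miRNAs. Only 3 of the 283 were further down in that library than Mir503, and 5 were further down than Mir322. The shortfall was smaller downstream, at 0.604 for Mir542, 0.839 for Mir450-1 and 0.870 for Mir450b, while the untested Mir450-2, with 3 counts there, stood at 0.538. Fbxw7 KO replicate 3 differed the other way, with 1.39 times the Mir322 and 1.69 times the Mir503 of the other KO libraries. Mir503 was 10th from the highest of the 283 there, but Mir322 was 38th and Mir351 71st, and Mir450-2 stood at 0.887.

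**Figure D3:**
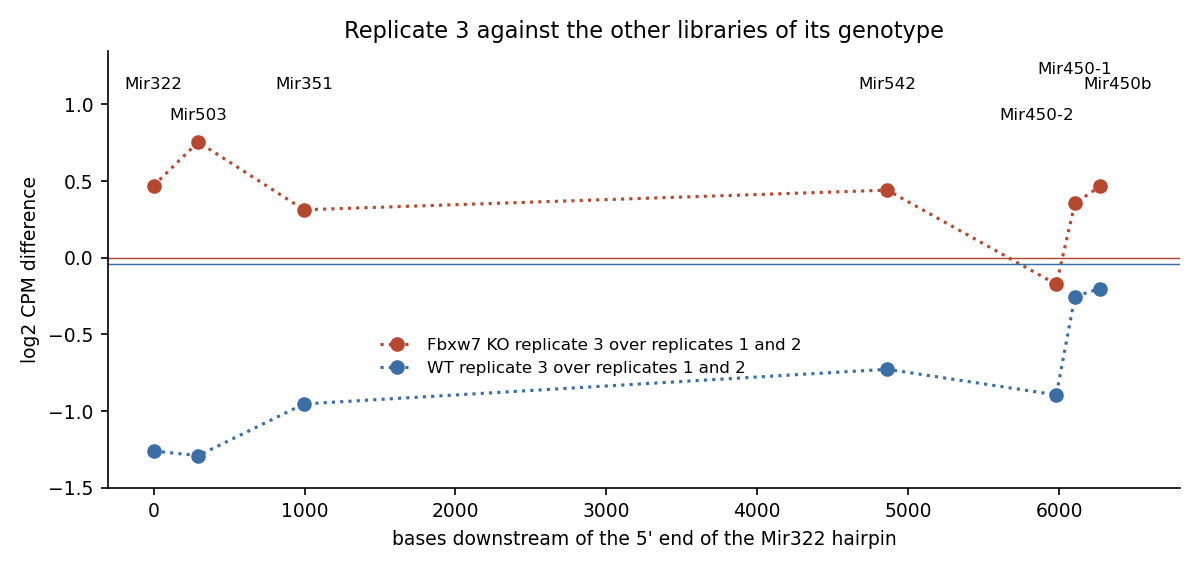
Difference in log2 CPM between replicate 3 and the mean of replicates 1 and 2 of the same genotype, for Fbxw7 KO (red) and WT (blue), against the distance of each hairpin from the 5′ end of Mir322 in bases; thin lines are the medians over all tested miRNAs. In WT the difference is −1.26 for Mir322 and −0.20 for Mir450b, and in Fbxw7 KO it lies between −0.17 and 0.76.

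Mir206, a muscle miRNA, had 220.9, 212.0 and 389.7 CPM in Fbxw7 KO and 137.3, 164.8 and 218.4 CPM in WT. Its highest value thus lay in Fbxw7 KO replicate 3, where Mir322 and Mir503 were also highest, but among WT libraries it was highest in replicate 3, where they were lowest. Mir499, the other tested row of the muscle list, had 5.995, 5.436 and 3.587 CPM in Fbxw7 KO and 5.017, 4.755 and 3.38 CPM in WT, and was lowest in replicate 3 of both genotypes. The muscle rows thus did not share a pattern over the libraries, and their part in these results was not tested.

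The balance between the members of a library does not depend on how libraries are scaled. Here the genotypes stood apart for 2 of the 5 ratios to Mir322, beside 23.0% of such ratios over the 282 other tested miRNAs. Both ratios use the same Mir322 values, so they are not independent. The FPKM ratio of Mir351 to Mir322 was 0.299, 0.299 and 0.268 in Fbxw7 KO, against 0.410, 0.416 and 0.512 in WT. Every KO library lay below every WT library, WT replicate 3 included. The mean log2 ratio was −1.79 ± 0.0908 in Fbxw7 KO and −1.17 ± 0.179 in WT (SD, n = 3 each), a difference of −0.62 (exact permutation test, 2-sided, p = 0.1, and 0.25 adjusted over the 5 ratios). With 3 libraries on each side this test cannot go below 0.1.

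The ratio of Mir503 to Mir322 was 0.125, 0.120 and 0.150 in Fbxw7 KO and 0.173, 0.160 and 0.163 in WT. These groups also did not overlap, with a smaller difference in log2 ratio of −0.34 (exact permutation p = 0.1, and 0.25 adjusted over the 5 ratios). Among all 282 other tested miRNAs the ratio to Mir322 failed to overlap between the genotypes in 23.0%, with Fbxw7 KO lower in 18.1% and higher in 4.96%. The median difference of these log2 ratios was −0.31, and 82 miRNAs lay below the −0.62 of Mir351, so that a lower ratio to Mir322 was common among miRNAs in general.

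For the downstream hairpins the ratio to Mir322 overlapped between genotypes. Mir450b stood at 0.0307, 0.0311 and 0.0308 of Mir322 in Fbxw7 KO, and at 0.0249, 0.0179 and 0.0441 in WT. The KO libraries were thus nearly equal while the WT libraries spread to both sides of them. The difference in log2 ratio was 0.19 for Mir450b (exact permutation p = 0.7), 0.09 for Mir542 (exact permutation p = 0.7) and 0.10 for Mir450-1 (exact permutation p = 1).

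**Figure D4:**
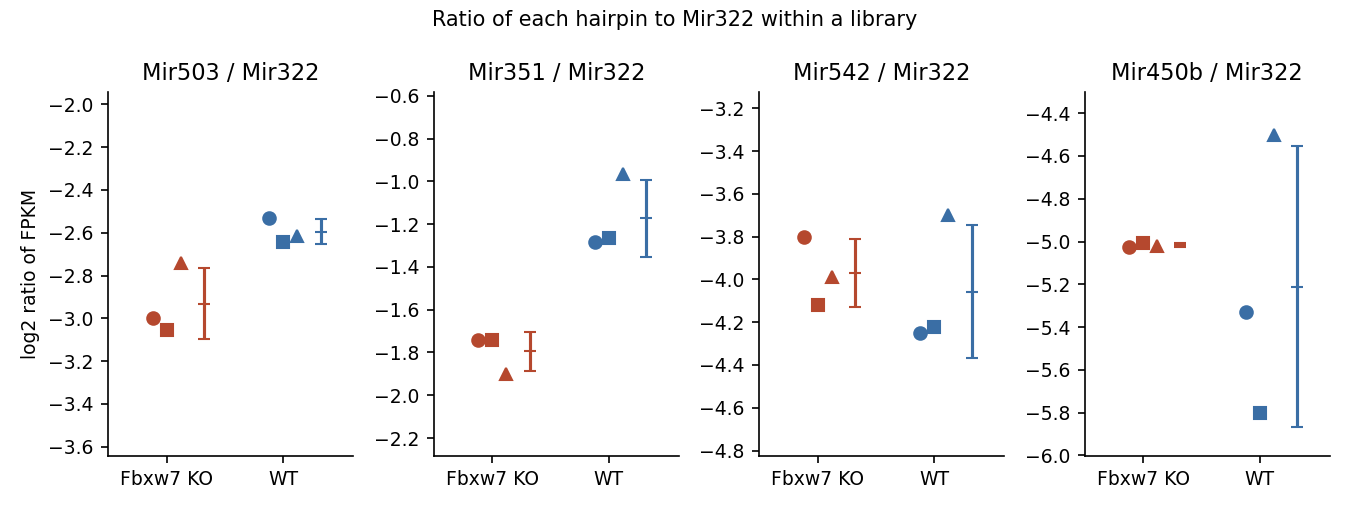
log2 ratio of the FPKM of Mir503, Mir351, Mir542 and Mir450b to that of Mir322 in each library, with Fbxw7 KO left of WT; circles, squares and triangles are replicates 1, 2 and 3, and the bars give the mean ± SD of 3 libraries. The genotypes are apart for Mir503 and Mir351 and overlap for Mir542 and Mir450b.

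In shares of the cluster's summed FPKM, Mir322 made up 65.7% ± 0.452 in Fbxw7 KO and 58.7% ± 2.82 in WT (SD, n = 3 each), and Mir351 made up 19.0% ± 1.13 in Fbxw7 KO and 26.1% ± 2.04 in WT. Neither overlapped between the genotypes. These shares are parts of the same sum, so they are not independent of the ratio of Mir351 to Mir322 above. Non-overlap of the ratio to Mir322 was found in 23.0% of the 282 other tested miRNAs. That is a different measure from these shares, for which no such background over all miRNAs was computed. Mir503 held 8.66% ± 1.05 in Fbxw7 KO and 9.72% ± 0.67 in WT and overlapped.

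The seed of miR-322-5p is shared by mature miRNAs of 10 other rows of the table. Of these, 5 stood at 0 counts, among them Mir497, whose row overlaps that of Mir497b so that its reads would be left out in counting. The strands of Mir15b, Mir16-1, Mir16-2 and Mir195a are shown to set the common seed beside the unlike remainder.
miR-322-5p: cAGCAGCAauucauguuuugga
miR-15b-5p: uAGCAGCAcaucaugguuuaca
miR-16-5p: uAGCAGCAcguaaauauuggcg
miR-195a-5p: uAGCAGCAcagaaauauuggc
All 5, Mir15a, Mir15b, Mir16-1, Mir16-2 and Mir195a, could be tested. Of them 4 rose in Fbxw7 KO (edgeR, adjusted p under 0.05), where 15.2% of all tested miRNAs rose. Mir16-1 had a log2 fold change of 0.44 (95% interval −0.06 to 0.93, edgeR adjusted p = 0.189). In the alternatives, calls were counted over these 5 together with the 3 tested relatives of Mir351. On that count 3 were called with the scaling from outside the Dlk1-Dio3 region, 2 without WT replicate 1 and 1 without WT replicate 2. Mir16-1 and Mir16-2 encode the same miR-16-5p and share 23 bases, so their counts are uncertain.

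The summed FPKM of these relatives was 6884, 7521 and 10234 in Fbxw7 KO, against 5099, 4481 and 4457 in WT, without overlap. In CPM, 23.7% of all tested miRNAs were likewise higher in Fbxw7 KO without overlap. Most of the sum came from Mir15b, with a mean of 5396 of 8213 FPKM in Fbxw7 KO and 2982 of 4679 FPKM in WT. Mir322 itself exceeded their sum in every library. Reads of Mir16-1, Mir16-2 and Mir497 may have been left out in counting, so this sum may be too low and the share of Mir322 too high. Its share of the group, itself included, was 66.1%, 63.5% and 64.5% in Fbxw7 KO and 75.5%, 76.7% and 58.9% in WT. The share was thus lower in the KO libraries than in WT replicates 1 and 2 but higher than in WT replicate 3. The whole group with this seed had 23223 ± 4823 FPKM in Fbxw7 KO and 16933 ± 5343 FPKM in WT (SD, n = 3 each), and the genotypes overlapped. With Mir503 added on the basis of bases 2 to 7, a grouping chosen after the data were seen, Mir322 and Mir503 made up 67.4% ± 1.31 in Fbxw7 KO and 73.3% ± 9.42 in WT.

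**Figure D5:**
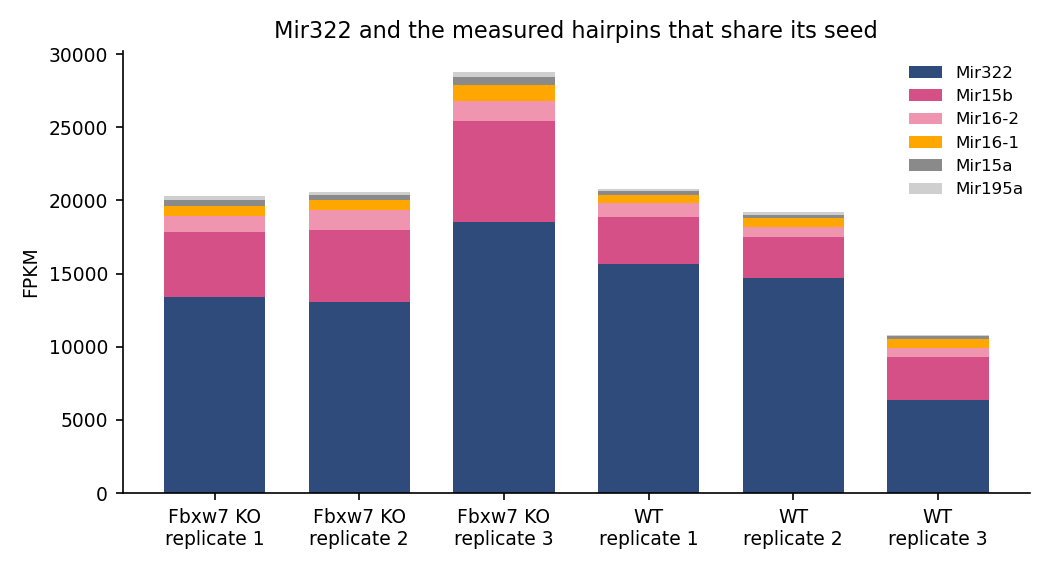
FPKM of Mir322 and of the 5 measured hairpins with the same seed, stacked for each library, with Fbxw7 KO left of WT. Mir322 fills most of every bar, and the summed relatives reach 6884 to 10234 FPKM in Fbxw7 KO and 4457 to 5099 FPKM in WT. Reads of some relatives may have been left out in counting, so their part of the bars may be too low.

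The seed of miR-351-5p is shared by the miR-125 strands, shown here for the same reason.
miR-351-5p: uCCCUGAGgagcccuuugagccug
miR-125a-5p: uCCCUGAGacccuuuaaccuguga
miR-125b-5p: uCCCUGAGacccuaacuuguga
Here the cluster member was the minor part. Mir351 made up 3.50%, 3.48% and 3.79% of the summed FPKM of its seed group in Fbxw7 KO, against 5.98%, 5.62% and 2.59% in WT, and the genotypes overlapped through WT replicate 3. Of the 5 related rows 2 stood at 0, and 0 of the 3 tested ones were called, beside 25.4% of all tested miRNAs. Mir125a had a log2 fold change of −0.05 (95% interval −0.31 to 0.20), Mir125b-1 of 0.17 (−0.28 to 0.61) and Mir125b-2 of 0.10 (−0.29 to 0.49), with edgeR adjusted p from 0.577 to 0.759. Mir125b-1 and Mir125b-2 encode the same strand and are uncertain for the same reason as the Mir16 rows, and the row of Mir125b-2 also overlaps that of Mir99ahg, so that reads there may be left out in counting. The seeds of the other mature strands of the cluster were found in 2 further rows, Mir6352, at 0 counts, and Mir6966, with 34 counts in all and not tested.

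Among the 82 other rows on chromosome X, 23 were tested, and 3 rose and 2 fell in Fbxw7 KO (edgeR, adjusted p under 0.05), beside 15.2% higher and 10.2% lower among all tested miRNAs. Those that rose were Mir672 (log2 fold change 3.64, edgeR adjusted p = 0.000227), Mir676 (0.72, adjusted p = 0.0161) and Mir1298 (1.53, adjusted p = 0.0330), and those that fell were Mir224 (−0.46, adjusted p = 0.0466) and Mir188 (−0.69, adjusted p = 0.0498). The median log2 fold change was 0.05 for these 23 and 0.29 for the 6 members. The count of 5 depended on the libraries, as it was 1 on leaving out Fbxw7 KO replicate 2, 2 on leaving out KO replicate 1 or either of WT replicates 1 and 2, and 3 on leaving out WT replicate 3.

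The 5 miRNAs whose profile over the 6 libraries was most like that of the summed cluster were Mir125b-2, Mir103-2, Mir30b, Mir361 and Mir152, out of 133 with at least 100 CPM on average. Likeness was the root mean square difference of log2 CPM after each profile was centred on its own mean, and it was 0.25, 0.27, 0.30, 0.30 and 0.30 for these 5, beside a median of 0.48 for the 133. Mir361, at 459.1, 513.4 and 498.3 CPM in Fbxw7 KO and 460.2, 500.5 and 369.4 CPM in WT, is also on chromosome X. Each of the 5 was lowest in WT replicate 3, but none by as much as the cluster, which lay 0.86 below its own mean there against 0.48 at most for the 5. Of the members themselves, Mir322 had a difference of 0.09 from the sum that it dominates, Mir503 of 0.14, Mir542 of 0.21 and Mir351 of 0.24. Mir450b, at 0.39, and Mir450-1, at 0.56, lay further from the sum than each of the 5 miRNAs outside the cluster. Mir450-1 also lay beyond the median of the 133.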

How the data were processed

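The authors deposited unnormalized read counts for each miRNA name, made with featureCounts 1.6.4 with strand ignored, per the file headers. The submitters' processing notes name mm10, and among tools Cufflinks 2.2.1, deepTools, SAMtools 1.5 and TopHat2 2.1.1, without their roles. Trimming is not given in the sources used here. The deposited FPKM values equal counts divided by length and by the TMM-scaled library total, within 8.7e-15 in all 1155 rows. They were used for levels per length, ratios and alternatives.

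The genotypes were compared by edgeR 4.0.16 under R 4.3.3 (TMM, filterByExpr with a minimum count of 10 and total of 15, robust glmQLFit, glmQLFTest, 2-sided), genotype as the only term, over all tested rows; limma 3.58.1 and DESeq2 1.42.0 served as alternatives. CPM divides counts by the total of the library over tested rows (2931913 to 5018826 counts) times its TMM factor (0.9209 to 1.04). The members and lists were chosen with earlier results of these data known. Named are all members, all tested seed relatives, changed chromosome X rows and the 5 nearest profiles. Mir206, Mir499 and WT replicate 3 were picked after their values were seen. Libraries of a genotype differed by more than sampling noise (chi-square per degree of freedom of at least 103).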

Additional observations from a re-analysis of the deposited data

How the results depend on the processing

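Of 19 alternatives (18 for Mir450-1), leaving out WT replicate 3 was the only one that called a member, Mir351, and it also turned Mir322 to −0.0598. For counts of calls the leave-outs gave 34 to 78 miRNAs in all, 19 to 46 higher and 15 to 32 lower, 0 to 1 members, 1 to 3 seed relatives and 1 to 6 other chromosome X miRNAs. A minimum of 10 CPM in 3 libraries left 19 lower and 2 on chromosome X, and library totals or upper-quartile factors left 3 on chromosome X. The log2 fold change of Mir503 turned positive with that minimum (0.00328), library totals (0.0259), upper-quartile factors (0.00617), limma on FPKM + 1 (0.0456, also without a filter) and FPKM + 10 (0.0449), and over the leave-outs it ran from −0.38 to 0.184. Log2 fold changes ran over the leave-outs from −0.0598 to 0.46 for Mir322, −0.585 to −0.159 for Mir351, 0.21 to 0.557 for Mir542 and 0.05 to 0.892 for Mir450-1. The log2 ratio to Mir322 ran over the leave-outs from −0.0109 to 0.264 for Mir542, −0.448 to 0.438 for Mir450-1, −0.102 to 0.546 for Mir450b, and stayed within −0.677 to −0.518 for Mir351 and −0.431 to −0.274 for Mir503. The cause of these shifts was not tested. TMM factors from outside the Dlk1-Dio3 region moved the median of all tested miRNAs from 0.05 to −0.07, with 30 called higher and 34 lower, and Mir322 to 0.14, Mir351 to −0.45 and Mir450b to 0.42.

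The labels do not say that replicate numbers pair the libraries. Same-numbered deviations from the genotype means correlated at −0.0566, 0.136 and 0.157, and unlike-numbered ones at −0.182 to 0.152. With 3 libraries a genotype these values cannot settle whether a pairing exists. With the replicate block, log2 fold changes were 0.34 for Mir322, −0.27 for Mir351 and 0.55 for Mir450b, and the block called 0 members.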
